A study of Mus musculus with 9 samples.

Results

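The nuclear genes for the subunits of oxidative phosphorylation were examined in mouse melanomas. They are the genes whose symbol starts with Nduf, Uqcr, Atp5, Cox4i, Cox5, Cox6, Cox7 or Cox8, together with Sdha, Sdhb, Sdhc, Sdhd, Cyc1 and Cycs. The array carried 114 probes for 86 such genes, and 84 genes had a probe that the scanner software marked as well above background in the tumour channel on 3 or more of 9 arrays, out of 13126 named genes measured in all. Each gene was represented by its brightest probe with a symbol. All 84 were well above background on 9 of 9 arrays, so none entered through a single group. The other 2, Cox4i2 and Cox7b2, which encode the lung and testis forms of their subunits, were well above background in the tumour channel on 0 arrays. By complex, the 84 genes comprised 32 subunits of complex I, 5 complex I assembly factors (the Ndufaf genes), 4 subunits of complex II, 9 of complex III, cytochrome c (Cycs), 15 of complex IV, the supercomplex factor Cox7a2l and 17 of complex V.

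RNA came from tumours grown from 3 variants of B16-F10, a mouse melanoma line, with different activity of histidine decarboxylase (HDC), the only enzyme of histamine synthesis. HDC-A tumours came from the variant with lowered histamine production, HDC-S tumours from the variant with raised production, and HDC-M tumours from the variant with unmodified production. Each group held 6 tumours, whose RNA was combined in random pairs into 3 pools. Each pool was labelled with Cy5 and hybridised beside Cy3-labelled RNA of HDC-M cells in culture, the same reference on all 9 arrays, with no dye swap. The labels used here give no host strain, age, tumour site or way of modifying HDC. Each group stands for 1 cell line variant, so the variant and its histamine production cannot be told apart. Values are log2 ratios of tumour pool over the cultured reference, and a difference between groups is a difference of mean log2 ratios, in which the reference and the dye cancel.

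Cy5 signal was well above background at 58.0% to 69.7% of probe spots per array. Of negative control spots, 1.59% to 4.14% per array carried this mark in Cy5 and 95.2% to 99.7% in Cy3. The Cy3 mark therefore does not tell signal from background. The melanocyte genes Tyr, Tyrp1, Dct and Pmel were well above background on 9 of 9 arrays. Hdc was dim, and its log2 ratios of 0.15, 0.15 and 0.42 in HDC-A, 0.60, 0.48 and 0.06 in HDC-M and 0.44, 0.33 and 0.61 in HDC-S overlapped, so its RNA did not check the labels. Replicates 1 and 2 of every group were scanned on 1 day and replicate 3 of every group on another. The 84 genes were bright: their median probe was brighter than 98.1% of all probes kept. In bulk tumour RNA, fewer cells of a type and less RNA per cell cannot be told apart.

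Oxidative phosphorylation couples electron transfer along the inner mitochondrial membrane to ATP synthesis. Complex I takes electrons from NADH and complex II from succinate. Complex III passes them to cytochrome c, and complex IV hands them to oxygen. The protons pumped on the way drive complex V, the ATP synthase. Most subunits are encoded in the nucleus and scattered over the chromosomes, and the remainder are encoded in mitochondrial DNA. The transcription factors NRF1, GABP (an ETS factor) and YY1 are known to bind promoters of many nuclear subunit genes, and the coactivator PGC-1α, encoded by Ppargc1a, raises their expression in muscle and brown fat.

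Few of these genes passed the test between tumour groups, and those that did went in both directions. With a limma adjusted p under 0.05 over all probes as the threshold for a call, 3 of 84 genes (3.57%) were called in HDC-S against HDC-M, beside 0.681% of all probes. In HDC-A against HDC-M 2 (2.38%) were called, beside 1.44%, and in HDC-S against HDC-A 12 (14.3%), beside 5.26%. All probes include dimmer probes and probes without a symbol. Of 12842 other named genes, each by its brightest probe, 0.568% were called higher and 0.366% lower in HDC-S against HDC-M. Their shares were 1.08% and 0.942% in HDC-A against HDC-M, and 3.61% and 3.11% in HDC-S against HDC-A. The median log2 difference over the 84 genes was -0.06, 0.02 and -0.05 in these comparisons, beside 0.01, 0.01 and 0.00 over all probes. The 95% interval of the difference lay within 0.5 on the log2 scale in either direction, a 1.41-fold change, for 78, 74 and 73 of the 84 genes. The comparisons share arrays, since each group enters 2 of them.

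**Figure D1:**
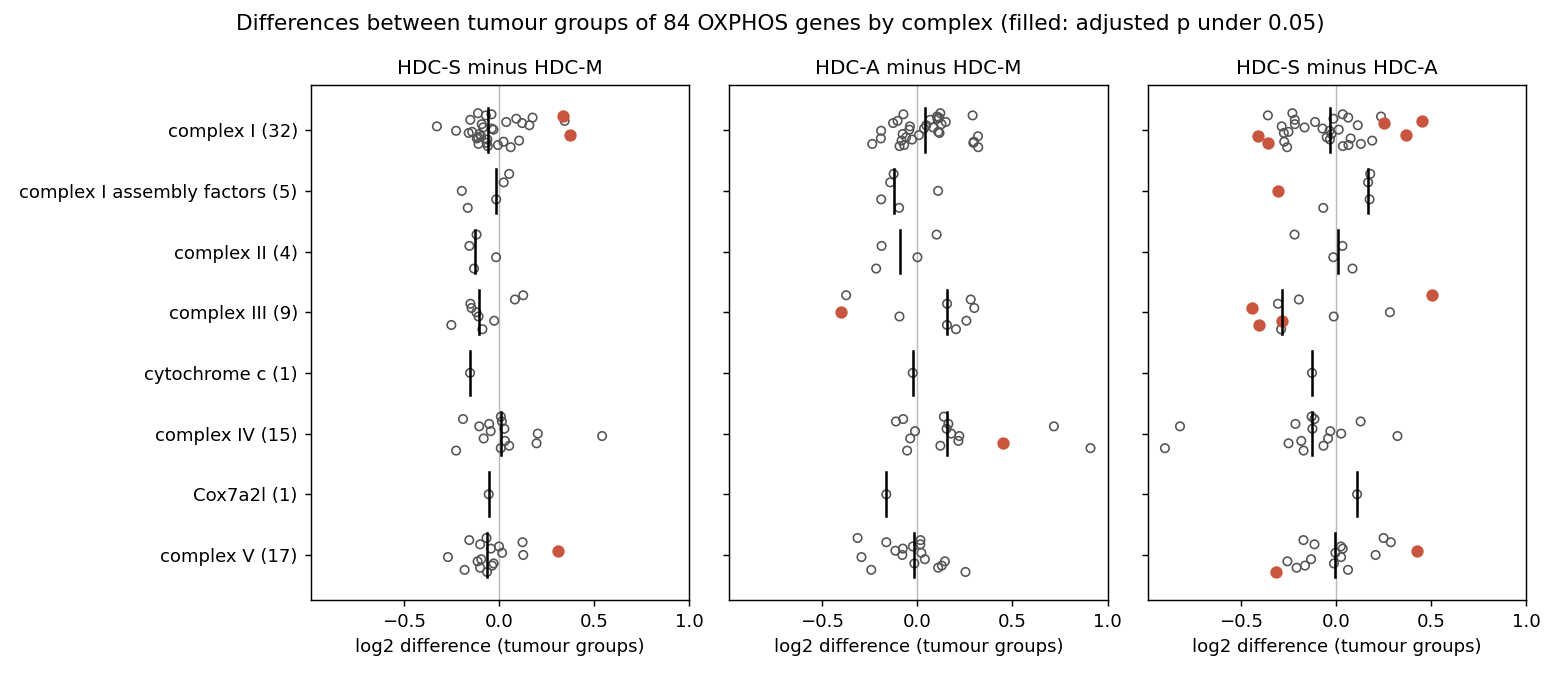
Log2 differences between tumour groups (x axis) of the 84 oxidative phosphorylation genes, by complex with the number of genes in parentheses (y axis). Each point is a gene, filled where the limma adjusted p was under 0.05, and black bars are class medians. Most points lie within 0.5 of 0, and 12 are filled in HDC-S minus HDC-A.

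In HDC-S against HDC-M, the raised-production tumours against the unmodified ones, the 3 called genes were all higher in HDC-S. Over all probes 0.439% were called higher and 0.242% lower. Of complex I, Ndufb9, an accessory subunit of the membrane arm, stood at a log2 ratio of 0.15, 0.13 and 0.09 in the HDC-S pools and at -0.27 and -0.24 in the HDC-M pools, where the spot of pool 2 was left out as an outlier. Its difference was 0.37 ± 0.06 (SE; limma adjusted p 0.0398), and the groups did not overlap. Ndufa13, another accessory subunit, stood at 0.43, 0.42 and 0.28 in HDC-S and at 0.00, 0.07 and 0.03 in HDC-M, a difference of 0.34 ± 0.06 (limma adjusted p 0.0475). Again every HDC-S pool lay above every HDC-M pool. Of complex V, Atp5g2, 1 of the 3 genes for the c subunit that forms the rotor ring, stood at 0.27, 0.33 and 0.28 in HDC-S and at -0.07, -0.02 and 0.03 in HDC-M. Its difference was 0.31 ± 0.05 (limma adjusted p 0.0445), and its second, dimmer probe gave 0.39 (limma adjusted p 0.026). Atp5g1, which encodes the same mature protein, differed by -0.04. The third c-subunit gene, Atp5g3, had saturated Cy5 spots on 2 HDC-A, 2 HDC-M and 1 HDC-S arrays, so no difference between tumour groups is given for it.

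No gene of complex II, III or IV was called in HDC-S against HDC-M. Their medians were -0.12, -0.11 and 0.01, and the smallest limma adjusted p of a gene in them was 0.148, for Uqcrh, the hinge subunit of complex III, at -0.25. The median was -0.06 for complex I and -0.06 for complex V. The lowest value was -0.33, for the complex I subunit Ndufb10 (limma adjusted p 0.125), and the highest was 0.54 ± 0.28, for Cox7a1 (limma adjusted p 0.414). The 3 calls rested on the whole set of arrays and on the normalisation. The count was 2 without HDC-A replicate 2 and 0 without any of the other 8 arrays, and with the arrays' medians centred in place of loess the differences of Ndufb9, Ndufa13 and Atp5g2 turned to -0.27, -0.17 and -0.18.

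In HDC-A against HDC-M, the lowered-production tumours against the unmodified ones, 1 gene was called higher and 1 lower. Over all probes 0.77% were called higher and 0.67% lower, so the share in these genes was near that of all probes. Cox7c, a small subunit of complex IV, stood at 0.07, 0.01 and -0.01 in the HDC-A pools, at -0.44, -0.39 and -0.43 in the HDC-M pools and at -0.09, -0.22 and -0.36 in the HDC-S pools. The HDC-A mean exceeded that of HDC-M by 0.45 ± 0.07 (limma adjusted p 0.0276), with no overlap of any 2 groups. Uqcrc1, a core subunit of complex III, stood at 0.50, 0.39 and 0.61 in HDC-A and at 0.91, 1.01 and 0.80 in HDC-M. Its difference was -0.40 ± 0.08 (limma adjusted p 0.0428), with no overlap, and its dimmer probe gave -0.36 (limma adjusted p 0.065).

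The remaining complexes in HDC-A against HDC-M had no calls. Complex I had a median of 0.04, from -0.24 for Ndufs7 to 0.32 for Ndufv3, and its smallest limma adjusted p was 0.0511, for Ndufs6 at 0.29 ± 0.06. Complex II lay between -0.22 (Sdhd) and 0.10 (Sdha). Complex V had a median of -0.02, from -0.31 for Atp5a1, its catalytic-head α subunit, to 0.25 for Atp5pb. Leaving out 1 array at a time left 0 or 1 calls in this comparison.

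HDC-S against HDC-A, the comparison of the variants at either end of histamine production, held most of the calls. In it 5 genes were called higher in HDC-S and 7 lower, beside 2.84% of all probes higher and 2.42% lower. Complex III held 4 calls of 9 genes, complex I held 5 of 32, complex V held 2 of 17, the assembly factors held 1 of 5, and complexes II and IV held none. The HDC-S and HDC-A pools overlapped for none of the 12. These genes were chosen by their difference in the same pools, so the lack of overlap adds no support. Calls ran in both directions within complexes I, III and V, and the sign of all 12 differences was the same under each of the 26 alternatives tried.

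In complex III, Cyc1, the cytochrome c1 that carries haem and passes electrons to cytochrome c, stood at 0.03, -0.08 and 0.04 in the HDC-S pools, at -0.16, -0.08 and -0.16 in HDC-M and at -0.35, -0.70 and -0.47 in HDC-A. It was higher in HDC-S than in HDC-A by 0.50 ± 0.09 (limma adjusted p 0.0145). The other 3 called subunits of the same complex went the opposite way. Uqcrb, a small subunit, stood at -0.04, -0.06 and -0.24 in HDC-S, at -0.02, 0.03 and 0.07 in HDC-M and at 0.33, 0.25 and 0.40 in HDC-A, a difference of -0.44 ± 0.07 (limma adjusted p 0.0115). Uqcrh, the acidic hinge protein that sits beside cytochrome c1, stood at 1.23, 1.14 and 0.98 in HDC-S, at 1.31, 1.42 and 1.36 in HDC-M and at 1.51, 1.51 and 1.55 in HDC-A, a difference of -0.41 ± 0.07 (limma adjusted p 0.0145). For both genes the HDC-M pools lay between the means of the other groups. Uqcrfs1, the Rieske iron-sulfur protein, stood at 0.53, 0.52 and 0.51 in HDC-S, at 0.58, 0.54 and 0.51 in HDC-M and at 0.85, 0.67 and 0.89 in HDC-A, a difference of -0.28 ± 0.07 (limma adjusted p 0.0428). Uqcr11 at -0.31 and Uqcrq at -0.29, both small subunits, missed the threshold (limma adjusted p 0.054 and 0.078), as did Uqcrc1 at 0.28 (limma adjusted p 0.0675). The median over the 9 genes was -0.28.

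In complex I, 3 accessory subunits were higher in HDC-S than in HDC-A. Ndufa6, a LYR-motif protein that binds the mitochondrial acyl carrier protein, stood at -0.24, -0.29 and -0.46 in HDC-S, at -0.84, -0.64 and -0.56 in HDC-M and at -0.74, -0.77 and -0.83 in HDC-A, a difference of 0.45 ± 0.09 (limma adjusted p 0.020). Ndufb9 stood at -0.25, -0.25 and -0.24 in HDC-A, 0.37 ± 0.05 below HDC-S (limma adjusted p 0.00947) and 0.01 above HDC-M (limma adjusted p 0.966). Ndufa8 stood at 0.38, 0.42 and 0.35 in HDC-S, at 0.26, 0.24 and 0.28 in HDC-M and at 0.14, 0.09 and 0.17 in HDC-A, a difference of 0.25 ± 0.05 (limma adjusted p 0.0272). For Ndufa8 no 2 groups overlapped and HDC-M lay in between. A brighter probe described as the same subunit, but without a symbol, was not called, at 0.20 (limma adjusted p 0.103). The other two called subunits were lower in HDC-S. Ndufs6, a zinc-binding subunit of the electron-input arm, stood at -0.43, -0.51 and -0.57 in HDC-S, at -0.49, -0.43 and -0.40 in HDC-M and at -0.09, -0.20 and -0.15 in HDC-A, a difference of -0.36 ± 0.06 (limma adjusted p 0.0135). Its 2 dimmer probes gave -0.36 and -0.30 (limma adjusted p 0.021 and 0.059). Ndufc1, a small membrane subunit, stood at -0.02, -0.09 and -0.18 in HDC-S, at -0.12, 0.04 and 0.07 in HDC-M and at 0.39 and 0.25 in HDC-A, where the spot of pool 3 was left out as an outlier. Its difference was -0.41 ± 0.09 (limma adjusted p 0.033), and its dimmer probe gave -0.38 (limma adjusted p 0.025). The median over complex I was -0.03.

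The assembly factor Ndufaf4 stood at -0.51, -0.64 and -0.51 in HDC-S and at -0.26, -0.28 and -0.21 in HDC-A, a difference of -0.30 ± 0.06 (limma adjusted p 0.0291), and its dimmer probe was not called at -0.17 (limma adjusted p 0.392). In complex V, Atp5g2 stood at -0.14, -0.11 and -0.17 in HDC-A, 0.43 ± 0.05 below HDC-S (limma adjusted p 0.00527), the smallest adjusted p among the 84 genes in this comparison, and its dimmer probe gave 0.55 (limma adjusted p 0.003). HDC-M lay between both groups and overlapped neither. Atp5pb, the b subunit of the peripheral stalk, stood at -0.22, -0.26 and -0.23 in HDC-S, at -0.21, -0.13 and -0.19 in HDC-M and at 0.14, -0.05 and 0.14 in HDC-A, a difference of -0.31 ± 0.06 (limma adjusted p 0.0265), and its dimmer probe was not called at -0.21 (limma adjusted p 0.267). Atp5g1 differed by 0.04. Complex IV had a median of -0.12 with its smallest limma adjusted p at 0.0823, for Cox7c at -0.25, and complex II ran from -0.22 (Sdha) to 0.09 (Sdhd). A dimmer probe of Sdha, the flavoprotein that oxidises succinate, was called at -0.34 (limma adjusted p 0.012).

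**Figure D2:**
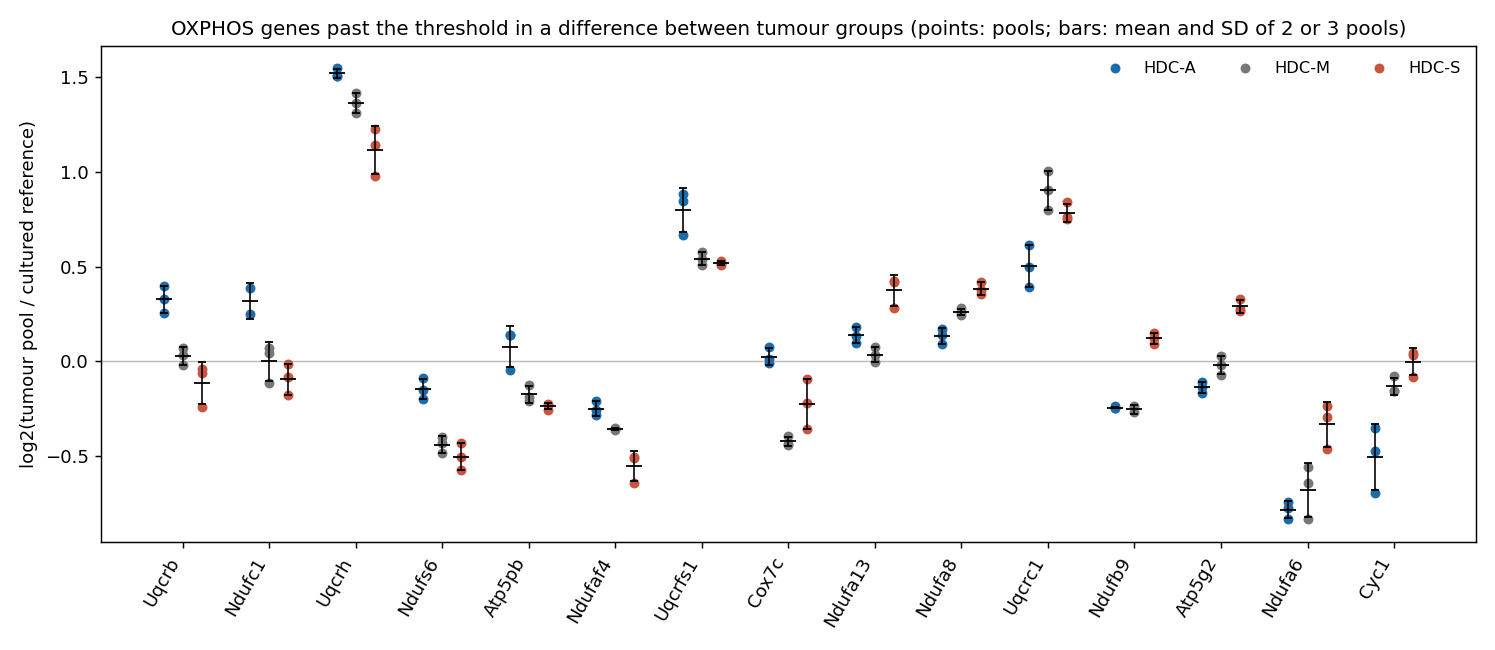
Log2 ratio of tumour pool over cultured reference (y axis) for the 15 oxidative phosphorylation genes past the threshold in any difference between tumour groups (x axis, ordered by HDC-S minus HDC-A). Points are pools, and bars are the mean and SD of 2 or 3 pools. Uqcrb, Ndufc1 and Uqcrh stand lowest in HDC-S and highest in HDC-A, and Ndufa6 and Cyc1 the other way round.

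The HDC-S against HDC-A calls differed in how far they depended on single arrays. When each array was left out in turn, Atp5g2, Ndufb9 and Uqcrb were called in 9 of 9 fits, Ndufs6 and Uqcrh in 8, Cyc1 in 7, Ndufa6 in 5, Atp5pb in 4, Ndufa8 and Ndufc1 in 3, and Ndufaf4 and Uqcrfs1 in 1. The count was 5 without HDC-S replicate 3, 6 without HDC-S replicate 1, HDC-S replicate 2, HDC-A replicate 1 or HDC-A replicate 3, and between 9 and 13 without any other array; with the scanner software's own log ratios, the authors' value table or median centring it was 0.

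The called genes were not spread evenly over the chromosomes, a pattern noticed after the values were seen and given here as a description with no test. The deposited files place 82 of the 84 probes on a chromosome, without naming a build. Of the 5 genes called higher in HDC-S than in HDC-A, 4 lie on chromosome 15 (Cyc1, Ndufa6, Atp5g2 and Ndufb9), and these are 4 of the 5 oxidative phosphorylation genes there. The fifth gene there, Cox6c, stood at 0.03 ± 0.12. Ndufa8, the remaining gene called higher, lies on chromosome 2. Of the 7 called lower, 3 lie on chromosome 13 (Uqcrb, Ndufs6 and Uqcrfs1), 2 on chromosome 3 (Ndufc1 and Atp5pb) and 2 on chromosome 4 (Uqcrh and Ndufaf4). The other 3 genes on chromosome 13 were below 0 too, Ndufs4 at -0.27, Cox7c at -0.25 and Sdha at -0.22.

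Genes of other functions on chromosomes 15, 13, 3 and 2 leaned the same way. Over all other named genes of chromosome 15, 119 of 521 were called higher in HDC-S than in HDC-A and 3 lower, with a median of 0.15. On chromosome 13, 70 of 429 other genes were called lower and 2 higher, with a median of -0.12. On chromosome 3, 60 of 637 were called lower and 1 higher, with a median of -0.10. On chromosome 2, 58 of 1059 (5.48%) were called higher and 5 (0.472%) lower, with a median of 0.06. On chromosome 4 the lean was weaker, with a median of -0.03 and 489 of 787 genes below 0. There 13 (1.65%) were called lower and 8 higher. Over all chromosomes 3.61% of the 12842 other genes were called higher and 3.11% lower, with a median of 0.00. Other genes also leaned on chromosomes without a called oxidative phosphorylation gene. On chromosome 18 9.97% were called higher and 0.332% lower, on 14 7.94% and 0.454%, and on 16 6.88% and 0.246%. On chromosome 6 1.90% were called higher and 7.32% lower. The median difference of the oxidative phosphorylation genes was 0.43 for the 5 on chromosome 15, -0.28 for the 6 on chromosome 13 and -0.31 for the 3 on chromosome 3.

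The group that stood apart differed between the chromosomes. The median log2 ratio of the 6 chromosome 13 genes was 0.33, 0.23 and 0.33 in the HDC-A pools, -0.07, -0.04 and 0.05 in the HDC-M pools and -0.05, -0.04 and -0.24 in the HDC-S pools, so HDC-A was high and the other groups overlapped. The median of the 5 chromosome 15 genes was -0.25, -0.25 and -0.24 in HDC-A, -0.16, -0.05 and -0.16 in HDC-M and 0.15, 0.13 and 0.04 in HDC-S, so HDC-S was high, and HDC-A was the lowest. Over the other genes of chromosome 13 the medians were 0.09, 0.09 and 0.06 in HDC-A and between -0.03 and -0.01 in the other 6 pools. Over those of chromosome 15 they were 0.13, 0.15 and 0.13 in HDC-S and between 0.00 and 0.06 in the other 6 pools.

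**Figure D3:**
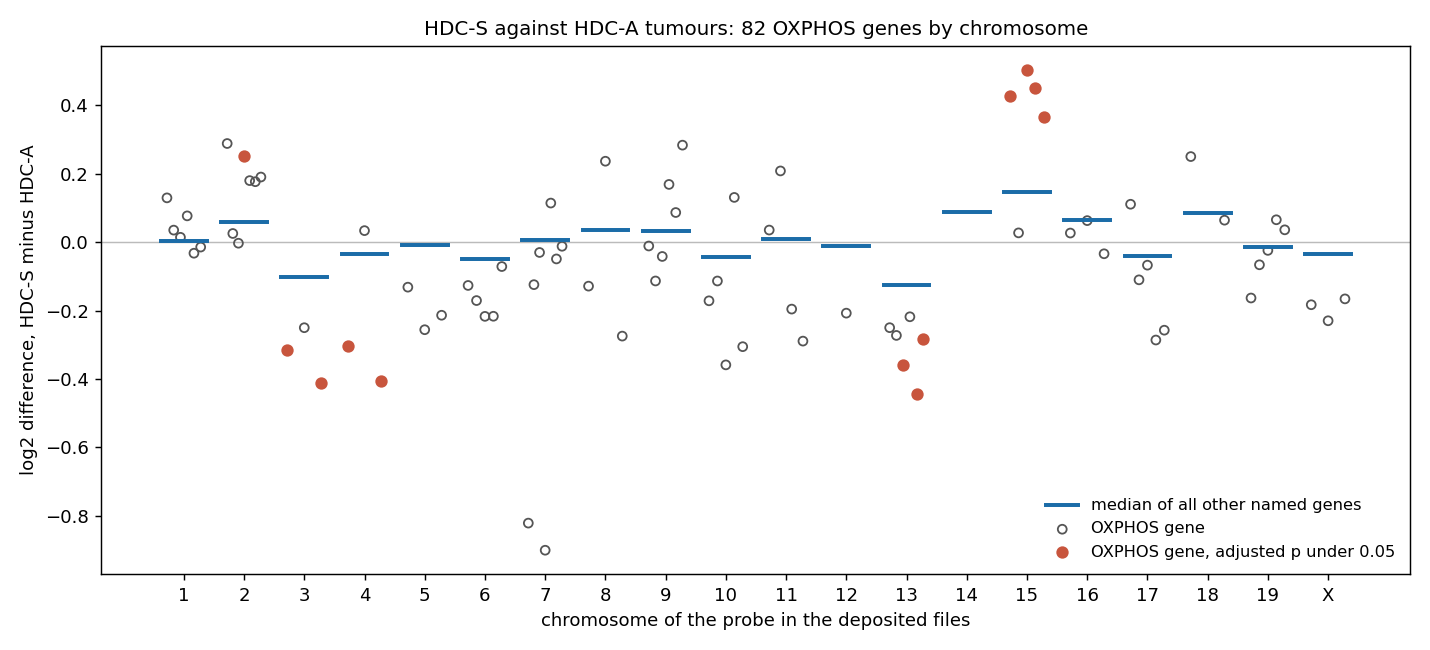
Log2 difference of HDC-S minus HDC-A (y axis) for the 82 oxidative phosphorylation genes placed on a chromosome in the deposited files (x axis). Points are genes, filled where the limma adjusted p was under 0.05, and blue bars are medians over all other named genes of the chromosome. The filled points above 0.3 all lie on chromosome 15, and all 6 genes of chromosome 13 lie below 0.

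The promoters of 6 genes described above are shown, for genes that stood higher and genes that stood lower in HDC-S than in HDC-A. Each is the 250 bases before the transcription start from the RefSeq promoter table of build GRCm38.p6, written 5′ to 3′ on the gene's strand, with matches to the motifs of NRF1 (GCGC, any base, then TGCGC), ETS factors (CCGGAAG) or YY1 (AAGATGGC) on either strand in capitals. Atp5g2 and Ndufa6 were higher in HDC-S than in HDC-A, and Ndufs6, Uqcrfs1 and Uqcrh were lower, as was Cox7c at -0.25 without passing the threshold.
Atp5g2 (chr15:102671048-102671297, minus strand): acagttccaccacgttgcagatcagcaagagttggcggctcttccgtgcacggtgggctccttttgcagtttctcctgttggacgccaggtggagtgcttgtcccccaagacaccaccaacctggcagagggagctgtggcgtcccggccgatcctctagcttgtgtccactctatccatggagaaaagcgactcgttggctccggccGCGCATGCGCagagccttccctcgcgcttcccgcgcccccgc
Ndufa6 (chr15:82354292-82354541, minus strand): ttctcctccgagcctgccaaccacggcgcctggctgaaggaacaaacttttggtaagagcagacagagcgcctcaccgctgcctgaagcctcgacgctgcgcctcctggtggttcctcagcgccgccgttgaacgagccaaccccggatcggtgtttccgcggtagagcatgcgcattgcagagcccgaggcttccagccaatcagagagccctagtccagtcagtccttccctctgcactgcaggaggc
Ndufs6 (chr13:73328483-73328732, minus strand): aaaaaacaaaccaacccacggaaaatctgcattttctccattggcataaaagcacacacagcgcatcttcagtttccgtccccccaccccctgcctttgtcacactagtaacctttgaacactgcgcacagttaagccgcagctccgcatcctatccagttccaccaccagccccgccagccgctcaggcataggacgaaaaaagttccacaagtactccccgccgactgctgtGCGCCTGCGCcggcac
Uqcrfs1 (chr13:30545317-30545566, minus strand): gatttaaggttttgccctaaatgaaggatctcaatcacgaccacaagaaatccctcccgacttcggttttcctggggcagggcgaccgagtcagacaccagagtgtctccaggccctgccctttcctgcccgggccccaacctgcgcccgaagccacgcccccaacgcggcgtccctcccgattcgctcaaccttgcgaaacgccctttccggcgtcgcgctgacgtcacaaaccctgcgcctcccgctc
Cox7c (chr13:86046796-86047045, minus strand): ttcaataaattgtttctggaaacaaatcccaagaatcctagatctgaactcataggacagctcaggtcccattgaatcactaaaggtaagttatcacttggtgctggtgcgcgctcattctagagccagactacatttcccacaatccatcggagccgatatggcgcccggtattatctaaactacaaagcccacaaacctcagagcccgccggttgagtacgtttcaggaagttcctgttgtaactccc
Uqcrh (chr4:116075071-116075320, minus strand): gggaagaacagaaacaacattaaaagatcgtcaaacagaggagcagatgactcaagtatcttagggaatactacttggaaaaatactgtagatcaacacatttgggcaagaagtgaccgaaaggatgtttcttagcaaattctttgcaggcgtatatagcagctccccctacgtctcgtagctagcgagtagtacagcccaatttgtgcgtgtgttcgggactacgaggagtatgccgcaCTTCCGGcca

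Atp5g2 and Ndufs6, which moved in opposite directions, each hold an NRF1 match, Uqcrh holds an ETS match, and Ndufa6, Uqcrfs1 and Cox7c hold none of the 3 motifs in this window. The table held 70 of the 84 genes, and Ndufb9, Cyc1 and Uqcrb were among those not in it. An NRF1 match was found in 12 of 70 (17.1%), beside 4.23% of 27025 genes of the table, an ETS match in 17.1% beside 7.83%, and a YY1 match in 1.43% beside 1.83%. Any of the 3 was found in 30% beside 12.8%. No matches of different motifs overlapped in these genes. A match is a description of the letters and not evidence of binding.

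Complex IV has tissue isoforms, and its muscle forms had the widest spread of all 84 genes between pools. Cox6a2, Cox7a1 and Cox8b replace Cox6a1, Cox7a2 and Cox8a in the enzyme of heart and skeletal muscle. Their largest SD within a group was 0.95 (Cox6a2), 0.59 (Cox7a1) and 0.55 (Cox8b), and the next largest of the 84 genes was 0.29, for Atp5a1. Cox8b stood at 1.51, 2.58 and 1.87 in HDC-A, at 1.48, 0.98 and 0.77 in HDC-M and at 1.33, 1.48 and 0.45 in HDC-S. Cox6a2 stood at -1.08, 0.10 and -1.78 in HDC-A, at -1.45, -2.08 and -1.38 in HDC-M and at -2.00, -0.91 and -2.30 in HDC-S. Cox7a1 stood at 1.34, 1.84 and 1.05 in HDC-A, at 1.06, 1.29 and 1.21 in HDC-M and at 2.21, 1.92 and 1.07 in HDC-S. No difference of the 3 genes between tumour groups passed the threshold. Cox8b differed by 0.91 ± 0.33 in HDC-A minus HDC-M (limma adjusted p 0.214) and by -0.90 ± 0.33 in HDC-S minus HDC-A (limma adjusted p 0.161). Cox6a2 differed by 0.72 ± 0.48 (limma adjusted p 0.532) and -0.82 ± 0.48 (limma adjusted p 0.405) in the same comparisons, and Cox7a1 by 0.54 ± 0.28 in HDC-S minus HDC-M.

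The common counterparts were tighter. Cox6a1, Cox7a2 and Cox8a had SDs between 0.03 and 0.15 within groups, and differed by 0.16, -0.04 and 0.12 in HDC-A minus HDC-M, none past the threshold. Cox6a1 had a saturated Cy5 spot on 1 HDC-A array. Cox6b2, the testis form, and Cox6b1 differed by -0.01 and 0.15. Skeletal muscle markers varied in the same pools. The mean log2 ratio over 19 measured of 20 listed markers was 1.82, 2.30 and 1.32 in HDC-A, from 1.05 to 1.49 in HDC-M and 1.04, 1.83 and 0.58 in HDC-S, and none of the 19 was called in any difference between tumour groups. HDC-A replicate 2 was the highest pool for Cox8b, Cox6a2 and the muscle markers, and HDC-S replicate 3 the lowest for Cox8b, Cox6a2 and the markers. Cox7a1 did not follow them, with its highest value in HDC-S replicate 1 and its lowest in HDC-A replicate 3. The part of muscle RNA in these values was not tested.

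**Figure D4:**
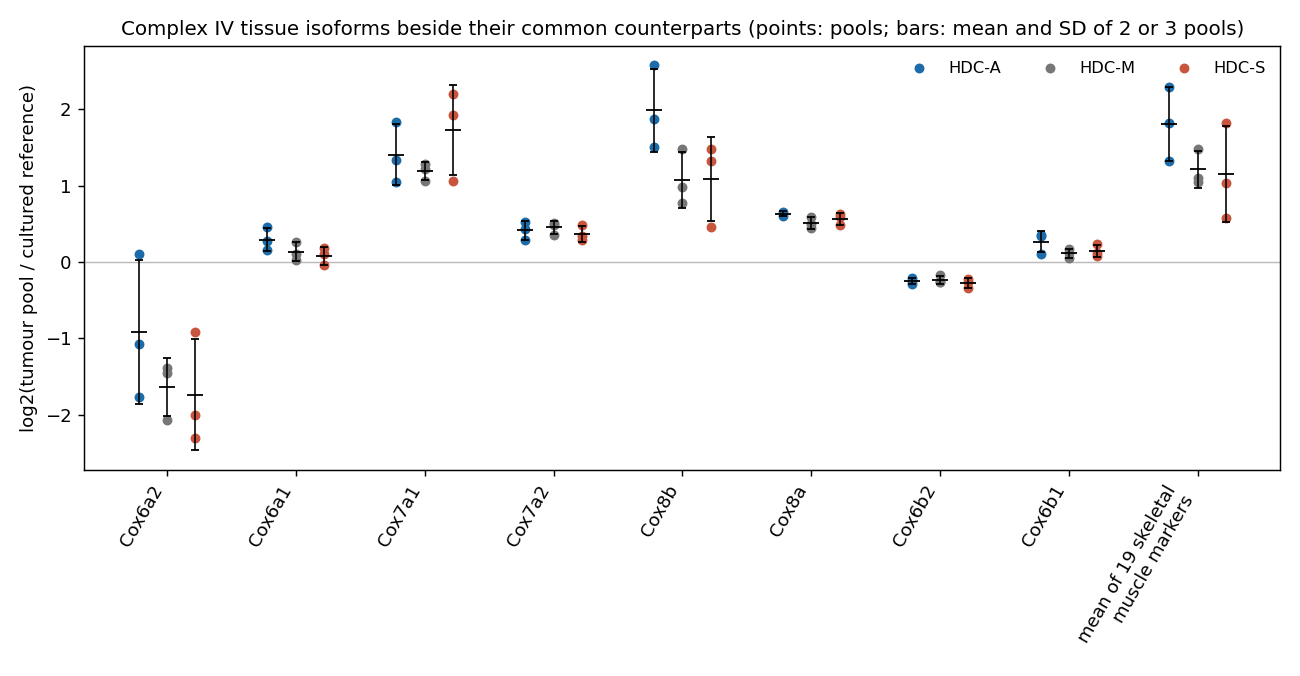
Log2 ratio of tumour pool over cultured reference (y axis) for tissue isoforms of complex IV, each beside its common counterpart, and for the mean of 19 skeletal muscle markers. Points are pools, and bars are the mean and SD of 2 or 3 pools. Cox6a2, Cox7a1, Cox8b and the muscle mean spread widely within groups, while Cox6a1, Cox7a2, Cox8a, Cox6b2 and Cox6b1 do not.

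More genes were called between tumours and cultured cells than between tumour groups. In HDC-M tumours over the cultured HDC-M reference, 62 of 84 genes (73.8%) were called, 40 higher in the tumours and 22 lower, beside 57.9% of all probes, 34% higher and 23.9% lower. The median log2 ratio was 0.12, beside 0.05 over all probes. The reference was 1 RNA sample, whose own spread the test leaves out, and without a dye swap a dye effect cannot be told apart from the difference between tumour and culture. Centring the arrays' medians in place of loess gave 65 calls, 65 higher and 0 lower, and moved the median over all probes to 0.27 and over the 84 genes to 0.91.

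In the ATP synthase 13 of 17 genes (76.5%) were called higher and 2 (11.8%) lower, beside 34% and 23.9% of all probes, with a median of 0.33. Atp5g3, a c-subunit gene, stood at 1.90, 1.65 and 1.35 in the HDC-M pools, a mean of 1.63 ± 0.28 (SD, n = 3; limma adjusted p 1.07e-06), with saturated Cy5 spots on 2 of the 3 arrays. Atp5k, the e subunit at the membrane, stood at 1.24, 1.30 and 1.30 (limma adjusted p 7.73e-08). Every pool of both genes lay above 1, on a scale where 0 is the level in culture. With saturated spots left out the value of Atp5g3 was 1.91, and the other c-subunit genes stood at 0.22 (Atp5g1) and -0.02 (Atp5g2). The dimmer probe of Atp5g2 was called lower, at -0.23 (limma adjusted p 0.000715). The lowest of the complex was Atp5h, a stalk subunit, at -0.21 (limma adjusted p 0.00845).

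Complex III had 6 of 9 genes (66.7%) called higher and 1 (11.1%) lower, beside 34% and 23.9% of all probes, with a median of 0.41. Uqcrh was highest at 1.31, 1.42 and 1.36, a mean of 1.37 ± 0.05 (SD, n = 3; limma adjusted p 5.74e-08), followed by Uqcrc1 at 0.90, and Uqcrq was lowest at -0.29. Complex I was called in both directions, with 14 of 32 genes (43.75%) higher and 8 (25%) lower and a median of 0.08. Its share called lower was near the 23.9% of all probes, and 34% of all probes were called higher. Of the 14, Ndufb7 at 0.43 (limma adjusted p 0.00273) rests on 1 HDC-M pool, assumed to vary like the other groups, since the spots of the other two were left out as outliers. The lowest values of complex I were -0.68 for Ndufa6, which stood at -0.84, -0.64 and -0.56 (limma adjusted p 1.09e-05), and -0.63 for Ndufa7. Of the assembly factors 3 of 5 were lower and none higher, with Ndufaf3 lowest at -0.42. In complex II, Sdhd and Sdha were higher at 0.48 and 0.47, Sdhb was lower at -0.35, and Sdhc stood at 0.06. The brightest probe of cytochrome c was lower, at -0.29, -0.19 and -0.17 (limma adjusted p 0.00652). The dimmer probes of Cycs were not called, at -0.05 and -0.09 (limma adjusted p 0.536 and 0.295).

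In complex IV 5 of 15 genes (33.3%) were called higher and 5 (33.3%) lower, with a median of 0.06. Over all probes 34% were called higher and 23.9% lower, so the share called higher was near that of all probes. Among the muscle forms Cox7a1 was higher at 1.19 ± 0.12 (SD, n = 3) and Cox8b at 1.08 ± 0.37, whereas Cox6a2 was lower at -1.64 ± 0.38 (limma adjusted p 0.00244). So the 3 muscle forms did not share a direction against the culture. Cox4i1, the common form of the largest nuclear-encoded subunit, stood at -0.60, -0.50 and -0.57, a mean of -0.55 (limma adjusted p 7.73e-06). Cox7c at -0.42, Ndufa4 at -0.30 and Cox6b2 at -0.23 were lower too, and Cox7b at 0.59, Cox8a at 0.51 and Cox7a2 at 0.45 were higher. Cox7a2l, which helps join complexes III and IV into supercomplexes, stood at -0.54, -0.60 and -0.66 (limma adjusted p 0.000136).

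Tumours hold host cells that the culture lacks. In the same comparison 11 of 12 macrophage markers were called higher with a median of 1.12, 10 of 10 fibroblast markers with a median of 2.43, 8 of 10 endothelial markers with a median of 0.89, 9 of 11 keratinocyte markers with a median of 2.08, and 11 of 19 skeletal muscle markers with a median of 0.63. T and NK cell markers were higher in 4 of 11, a share near the 34% of all probes called higher, and adipocyte markers in 4 of 8. The part of host cell RNA in the tumour over culture values was not tested. Keratinocyte markers had medians of -1.42 in HDC-S against HDC-M and -1.29 in HDC-S against HDC-A, with pool means of 0.08, 1.01 and 1.29 in HDC-S and 1.51 to 2.61 in HDC-M. HDC-A replicates 1 and 2 stood at 1.89 and 2.26 and replicate 3 below HDC-S replicate 3, so HDC-S and HDC-A overlapped. Fibroblast markers were below 0 in 10 of 10 in HDC-S minus HDC-A (median -0.38) and endothelial markers in 8 of 10 (median -0.25), and macrophage markers were above 0 in 12 of 12 in HDC-S minus HDC-M (median 0.32) and 11 of 12 in HDC-A minus HDC-M (median 0.33). The part of these cell types in the differences of the 84 genes was not tested. Between tumour groups no marker of these 7 cell types was called, and the melanocyte genes Oca2 (lower in HDC-S against both groups) and Tyr (lower in HDC-S than in HDC-A) were.

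**Figure D5:**
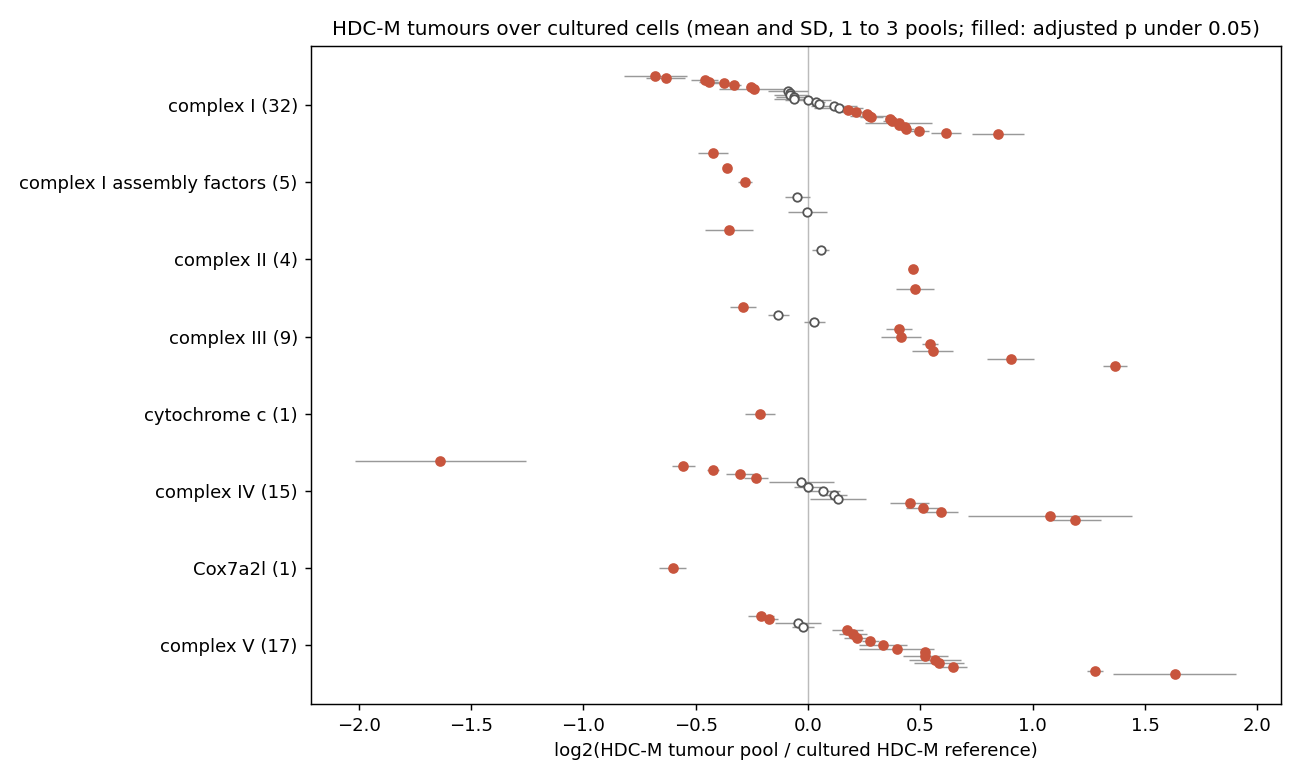
Log2 ratio of HDC-M tumour pools over cultured HDC-M cells (x axis), by complex with the number of genes in parentheses (y axis). Points are the mean of 1 to 3 pools with the SD where there are 2 or more (Ndufb7 has 1), filled where the limma adjusted p was under 0.05. Complexes III and V lie mostly above 0, and Cox6a2 stands alone at -1.64.

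Genes that work with the complexes were described from lists. Of 33 other assembly factors measured, 1 was higher and 1 lower in HDC-S against HDC-M, and none was called in HDC-A against HDC-M. In HDC-S against HDC-A 4 were higher and 1 lower, and the list medians in these comparisons were -0.03, -0.02 and 0.01. Over all probes 0.439% were called higher and 0.242% lower in HDC-S against HDC-M. The shares were 0.77% and 0.67% in HDC-A against HDC-M, and 2.84% and 2.42% in HDC-S against HDC-A. Cox14, a complex IV assembly factor, was higher in HDC-S than in HDC-M by 0.46 ± 0.07 (limma adjusted p 0.0279), at 0.38, 0.20 and 0.17 against -0.22, -0.17 and -0.23. Lrpprc, which stabilises mitochondrial mRNAs, was lower at -0.53 ± 0.06 (limma adjusted p 0.0192), at -0.30, -0.22 and -0.29 in HDC-S against 0.25, 0.29 and 0.25 in HDC-M. For both genes the groups did not overlap. In HDC-S against HDC-A, Surf1 (0.29), Cox11 (0.33), Cox14 (0.28) and the copper chaperone Cox17 (0.31), all factors of complex IV assembly, were higher, and Cox20 (-0.34), another, was lower.

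Of 18 regulators of mitochondrial biogenesis, 1 was lower in HDC-S against HDC-M, beside 0.242% of all probes. In HDC-A against HDC-M 1 was lower, beside 0.67% of all probes. In HDC-S against HDC-A 2 were higher, beside 2.84% of all probes. Ppargc1a stood at 1.58, 2.05 and 1.72 in HDC-S, at 2.29, 2.28 and 2.29 in HDC-A and at 2.38, 2.91 and 2.74 in HDC-M, and was lower in HDC-S than in HDC-M at -0.89 ± 0.14 (limma adjusted p 0.0394). When each array was left out in turn its call held in 1 of 9 fits, and it held under 10 of the 26 alternatives in all. HDC-S and HDC-M did not overlap, and HDC-A lay in between, at -0.39 against HDC-M (limma adjusted p 0.223). Gabpa, the DNA-binding subunit of GABP, was lower in HDC-A than in HDC-M at -0.38 (limma adjusted p 0.0346), and Gabpb1, its partner, and Nrf1 were higher in HDC-S than in HDC-A at 0.34 and 0.27 (limma adjusted p 0.0299 and 0.0481).

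Among 18 genes of the citric acid cycle and pyruvate dehydrogenase, the source of the NADH and succinate used by complexes I and II, none was called in HDC-S against HDC-M. In HDC-A against HDC-M 2 were lower, Pdhb at -0.40 and Sucla2 at -0.36 (limma adjusted p 0.0211 and 0.0306), beside 0.67% of all probes. In HDC-S against HDC-A 2 were higher, Idh3b at 0.35 and Pdhb at 0.24, beside 2.84% of all probes. Of 33 hypoxia and glycolysis genes, 4 were higher in HDC-S than in HDC-A, beside 2.84% of all probes. They were Ndrg1 at 1.27, Aldoc at 0.65, Pfkl at 0.42 and Pkm at 0.27. The 1.27 of Ndrg1 was also the highest difference among the other genes of chromosome 15, where 22.8% were called higher. None of the list was called against HDC-M. The list median was 0.18 in HDC-S minus HDC-A and 0.25 in HDC-S minus HDC-M. The median of the 84 oxidative phosphorylation genes in the same comparisons was -0.05 and -0.06.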

How the data were processed

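RNA of 9 tumour pools, 3 per group, was measured on 2-colour Agilent mouse arrays. The deposited scanner files hold, for both dyes, the intensity of each spot and its local background, as given per the file headers by Feature Extraction 8.5.1.1. Other deposited columns mark, per the file headers, spots as well above background, saturated or outliers. The authors' value table holds log10 ratios of Cy5 over Cy3 and equalled the deposited log10 column at all 43790 spots compared.

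Mean signals were corrected by normexp (offset 50) and a loess curve per array (limma 3.58.1, R 4.3.3), and outlier spots were left out, which removed 18 spots of 13 of the 84 genes. Probes well above background in Cy5 on at least 3 arrays were kept, 26871 of 41174. The log2 ratios were fitted with lmFit and eBayes in 1 model of 3 groups, adjusted by Benjamini-Hochberg over all probes kept, with a threshold of 0.05. Probes were named through their accessions and a RefSeq gene table. Where a gene had several named probes, the brightest stood for it. The text names genes past the threshold, the extremes of each complex, tissue isoforms with their counterparts, and called genes of the lists. The members, lists and naming rule were chosen with earlier results of these data known. Nothing says how tumours were spread over animals, so p-values measure the spread between pools. The precision is limited by the 3 arrays per group. The fit was tested on simulated data. Same-numbered arrays did not deviate together in every pair (r from -0.19 to 0.55), so the number was not used as a block.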

Additional observations from a re-analysis of the deposited data

How the results depend on the processing

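The count of called genes in HDC-M tumours over the cultured reference stayed between 57 and 65 under the alternatives tried, including 57 to 63 when each array was left out in turn. The counts between tumour groups depended on the normalisation and on single arrays. Leaving out each array in turn gave 0 to 2 calls in HDC-S against HDC-M, 0 or 1 in HDC-A against HDC-M and 5 to 13 in HDC-S against HDC-A. In HDC-S against HDC-A 0 calls were made with log ratios of the scanner software, the authors' value table, median centring and the first scan day alone, 1 with scaling between arrays, 6 with the Cy5 channel alone and 7 with only the compared groups fitted. In HDC-A against HDC-M it was 0 under the scanner software's log ratios, the authors' value table, median centring, scaling between arrays, the Cy5 channel alone and the first scan day alone, 1 with only the compared groups fitted, with the mean over a gene's probes and with scan day as a block, and 4 with array weights. In HDC-S against HDC-M it was 0 under plain background subtraction, the same 6 settings, scan day as a block and only the compared groups, 3 without background correction but with 0 higher and 3 lower, and 5 with array weights. With the replicate number as a block it was 0 in HDC-S against HDC-M, 1 in HDC-A against HDC-M, 8 in HDC-S against HDC-A and 62 over the reference; the numbers were not shown to pair the pools. The cause of these changes was not tested.

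Median centring, which leaves the dependence on brightness in place, moved the median over all probes to -0.12 in HDC-S against HDC-M and -0.11 in HDC-A against HDC-M, and over the 84 genes to -0.52 and -0.42. Under it Ndufb9, Ndufa13 and Atp5g2 reversed to -0.27, -0.17 and -0.18 in HDC-S against HDC-M, and Cox4i1, Cox7a2l, Ndufa6 and Ndufa7 to 0.25, 0.19, 0.13 and 0.17 over the reference. The medians by chromosome, added after the data were seen, reversed under it to -0.27 for chromosome 15 in HDC-S against HDC-M and -0.18 for chromosome 13 in HDC-A against HDC-M, and under scaling between arrays to 0.10 for chromosome 15 in HDC-A against HDC-M. In HDC-S against HDC-A they stayed between 0.35 and 0.45 for chromosome 15 and between -0.35 and -0.22 for chromosome 13 under all 26 alternatives.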

Other observations

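Probes outside the rule touched the same complexes. The files describe 2 probes by transcripts of mitochondrial DNA. The probe for subunit I of complex IV stood at 1.65, 1.72 and 1.35 in HDC-A, at 1.49, 1.69 and 1.66 in HDC-M and at 1.36, 1.30 and 1.16 in HDC-S. Its HDC-S pools lay below all HDC-M pools, at a difference of -0.34 (limma adjusted p 0.182), which did not pass the threshold. The probe for subunit II had saturated Cy5 spots on 9 of 9 arrays. Atpif1, the inhibitor of ATP synthase, differed by -0.04 in HDC-S against HDC-M and 0.04 in HDC-A against HDC-M. A probe described as complex I subunit alpha 8 with no symbol gave 0.20 in HDC-S against HDC-A (limma adjusted p 0.103), beside 0.25 for the probe of Ndufa8. Over the reference, the probes described as subunit alpha 11 stood at 0.29 and 0.38 and the probe described as flavoprotein 2 at 0.21 in HDC-M tumours.

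Of 26 dimmer probes of genes with several, 21 had the sign of the brightest probe in HDC-S against HDC-A, and 7 of 7 did among the called genes, of which 4 were called themselves. These counts do not cover the tumours over the cultured reference. There the dimmer probes of Ndufab1 (0.17 and 0.16 beside -0.37) and Ndufb8 (-0.06 beside 0.21) had the opposite sign and were not called. Dimmer probes of Atp5g2 (-0.23 beside -0.02), Ndufc1 (-0.32 beside -1.6e-05) and Ndufa12 (-0.31 and -0.23 beside -0.08) were called lower where the brightest was not. The dimmer probe of Atp5pb was not called, at -0.02 beside a called -0.18. Those of Uqcrh and Uqcrc1 were called with the same sign.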
